A study of Mus musculus with 8 samples.

Results

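Krt5, Krt14, Krt15, Krt17 and Trp63, genes that mark the basal cells of the prostate epithelium, were examined in the prostates of NOD mice that received etanercept or vehicle. They were chosen by symbol, after the gene identifiers of the count table were matched to the GENCODE M21 annotation, and make up 5 of the 54532 genes counted. All 5 were found and all 5 had enough counts to be tested. Their mean level was lower in the etanercept group by 1.52-fold to 1.66-fold, but none of the 5 passed the test after adjustment for all genes, and control and etanercept mice overlapped for each gene.

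All 8 mice were males of the inbred NOD/ShiLtJ strain, which develops autoimmune diabetes and prostatic inflammation. Etanercept, a soluble TNF receptor that binds and blocks the cytokine TNF, was injected into the peritoneum of 4 mice (etanercept 17, 19, 50 and 52) at 4 mg/kg from 25 weeks of age, in 2 injections per week over 5 weeks. The 4 control mice (control 1, 3, 65 and 69) received the vehicle PBS on that schedule, and prostates of both groups were harvested at 30 weeks. The study placed diabetic and non-diabetic animals in the same groups. RNA came from frozen prostate pieces whose lobe the sample labels do not name, and each mouse gave 1 library.

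The prostatic duct is lined by tall secretory luminal cells that rest on a layer of basal cells along the basement membrane. Basal cells build their cytoskeleton from the type II keratin Krt5 paired with the type I keratin Krt14, while luminal cells use Krt8 and Krt18. Trp63 encodes p63, a transcription factor of the p53 family that basal cells of many stratified and glandular epithelia need and that binds keratin genes. Krt15 is a type I keratin of resting basal cells and of progenitor-rich regions, and Krt17 is a type I keratin known from skin appendages and from stressed or wounded epithelium.

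Krt5 (ENSMUSG00000061527) lies in the type II keratin cluster at chr15:101707070-101712898 of GRCm38 on the minus strand. The type I keratin cluster on chromosome 11 holds Krt15 (ENSMUSG00000054146, chr11:100131758-100135928), Krt14 (ENSMUSG00000045545, chr11:100203162-100207548) and Krt17 (ENSMUSG00000035557, chr11:100256217-100261029), all on the minus strand. Trp63 (ENSMUSG00000022510) spans chr16:25683763-25892102 on the plus strand. A miRNA gene, Gm44323, overlaps an exon of Krt5 on the other strand and had 0 counts in every mouse, as did an snRNA gene and a processed pseudogene that lie in introns of Trp63.

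The 3 type I keratins share parts of their sequence, Krt14 and Krt17 most, which bears on how well short reads can be assigned to them. The most alike stretch of their coding sequences is shown because it is where reads of Krt14 and Krt17 are hardest to separate. It is 87 bases long and lies in exon 6 of 8 in each gene, at chr11:100204110-100204196 for Krt14, chr11:100257435-100257521 for Krt17 and chr11:100132993-100133079 for Krt15 (GRCm38, minus strand), and capitals mark bases that are identical in all 3 genes.
Krt14: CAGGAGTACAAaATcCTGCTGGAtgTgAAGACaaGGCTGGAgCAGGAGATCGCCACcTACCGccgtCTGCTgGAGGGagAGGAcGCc
Krt17: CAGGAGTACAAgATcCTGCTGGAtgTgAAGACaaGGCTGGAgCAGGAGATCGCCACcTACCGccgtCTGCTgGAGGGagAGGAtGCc
Krt15: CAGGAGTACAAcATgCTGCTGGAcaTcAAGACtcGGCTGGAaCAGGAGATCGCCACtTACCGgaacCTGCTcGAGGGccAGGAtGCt
Krt14 and Krt17 were identical at 85 of the 87 bases, Krt17 and Krt15 at 70, and Krt14 and Krt15 at 69. Over the whole transcript, 14.4% of the 50-base words of Krt14 also occurred in a transcript of another gene, mostly in Krt16 and some in Krt17. That share was 12.2% for Krt5, mostly with Krt6a, 3.99% for Krt17 and 0.666% for Krt15, and it was 0 for Trp63. Krt6a had 0 counts in every mouse and Krt16 had between 0 and 4, so the genes that share most sequence with Krt5 and Krt14 had almost no counts of their own. How the counting treated reads that fit 2 genes is not given in the sources used here, so the levels of Krt5, Krt14 and, less so, Krt17 are uncertain to that extent.

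The promoter of Krt5 is shown because p63 is known to bind keratin promoters. It is the RefSeq sequence of the 250 bases before the annotated start site (GRCm38.p6, chr15:101712906-101713155, minus strand, printed from 5′ to 3′). Capitals mark a match to the p53 family decamer, the 10-base unit that p53, p63 and p73 recognise, and further downstream the letters ATAAAAG, which resemble a TATA box.
Krt5 promoter: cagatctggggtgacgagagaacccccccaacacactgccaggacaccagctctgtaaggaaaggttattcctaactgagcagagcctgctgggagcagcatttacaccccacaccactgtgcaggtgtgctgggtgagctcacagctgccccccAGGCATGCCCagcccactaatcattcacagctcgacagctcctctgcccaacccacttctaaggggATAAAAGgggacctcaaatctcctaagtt
The decamer lay at positions -95 to -86 and ATAAAAG at -29 to -23 before the start site. On both strands, 7.13% of 32851 RefSeq promoter windows held the decamer and 4.83% held ATAAAAG. Of 13 other basal layer genes with a window, 0 held either. The letters TATAAA (in 12.4% of all windows), GGGCGG (in 32.7%) and TGANTCA (in 6.75%) were not in the Krt5 window. The RefSeq start site of Krt14 in the same table lay 1518 bases inside the GENCODE gene, so its window was not used, and Krt15, Krt17 and Trp63 had no entry in it.

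Depth was between 13760669 and 25178942 counts per mouse, and each of the 5 genes was counted in every mouse. Krt15 had 944 to 3366 counts, Krt5 476 to 3036, Krt14 213 to 2671, Trp63 189 to 731 and Krt17 54 to 621, so that counting error was smallest for Krt15 and largest for Krt17. Libraries differed in their most abundant secretory genes: Sbp took 0.157% to 20.7% of counts and 9530053A07Rik took 1.1% to 9.37%. Levels per mouse are given as CPM, counts divided by the library size in units of 1e6 counts, with library sizes scaled by the trimmed mean of M values (TMM). Seminal vesicle genes, which mark another gland, summed to 97200 CPM in etanercept 17 and to 4001 CPM in control 69, against 0 to 667.9 CPM in the other 6 mice. Skeletal muscle Myh4 reached 5287 counts in control 3.

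Trp63 had 26.4, 23.5, 21.6 and 14.3 CPM in control 1, 3, 65 and 69, and 14.1, 13.8, 11.3 and 17.1 CPM in etanercept 17, 19, 50 and 52. Of the 4 etanercept mice, 3 lay below every control mouse, and the exception, etanercept 52, lay above control 69 alone. Etanercept 17 was only just below control 69, with 242 and 247 counts. The group means were 21.5 ± 5.17 CPM (SD, n = 4) in controls and 14.1 ± 2.38 CPM (SD, n = 4) with etanercept. The log2 fold change was -0.61 ± 0.25 (SE; 95% interval -1.16 to -0.06), with an unadjusted p of 0.0341 and an adjusted p of 0.739 with edgeR's quasi-likelihood model after Benjamini-Hochberg correction. An exact two-sided permutation test on log2(CPM + 1) gave p = 0.0571 (n = 4 per group), where 0.0286 is the smallest value that 4 mice against 4 allow. With library size alone in place of TMM scaling, the same permutation test gave p = 0.114. In whole tissue, fewer basal cells and less RNA per basal cell cannot be told apart.

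Krt5, the type II partner of the basal pair, had 109.8, 76.6, 84.7 and 50.9 CPM in control 1, 3, 65 and 69, and 74.8, 49.15, 28.5 and 55.2 CPM in etanercept 17, 19, 50 and 52. Controls 1, 3 and 65 lay above every etanercept mouse, while control 69 fell among the etanercept mice. The means were 80.5 ± 24.2 and 51.9 ± 19.1 CPM (SD, n = 4 each). The log2 fold change of Krt5 was -0.63 ± 0.31 (SE; 95% interval -1.33 to 0.06), with an adjusted p of 0.769 by edgeR (quasi-likelihood, Benjamini-Hochberg), and the exact permutation test gave p = 0.114 (n = 4 per group).

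Krt14, the type I partner, had 96.6, 70.01, 60.01 and 12.3 CPM in control 1, 3, 65 and 69. The etanercept mice 17, 19, 50 and 52 had 47.7, 29.4, 22.7 and 44.6 CPM. All 4 etanercept mice lay below 3 of the controls and above the remaining one, control 69, which had the lowest level of all 8. The means were 59.7 ± 35.2 CPM in controls and 36.1 ± 11.99 CPM with etanercept (SD, n = 4 each), and the highest mouse was 7.83 times the lowest, the widest such range of the 5 genes, although the coefficient of variation among controls was larger for Krt17 (67.1%) than for Krt14 (58.9%). The log2 fold change was -0.73 ± 0.51 (SE; 95% interval -1.87 to 0.41), with an adjusted p of 0.846 with edgeR's quasi-likelihood model after Benjamini-Hochberg correction, and the exact permutation test gave p = 0.543 (n = 4 per group).

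Krt15, the type I keratin of resting basal cells, had 122, 124, 92.5 and 85.4 CPM in control 1, 3, 65 and 69, and 59.4, 60.2, 56.4 and 103.0 CPM in etanercept 17, 19, 50 and 52. Etanercept 17, 19 and 50 were close together and below every control, and etanercept 52 was above control 65 and control 69. The means were 106 ± 19.9 and 69.8 ± 22.2 CPM (SD, n = 4 each). The log2 fold change was -0.60 ± 0.23 (SE; 95% interval -1.13 to -0.08), with an unadjusted p of 0.0279 and an adjusted p of 0.739 by edgeR (quasi-likelihood, Benjamini-Hochberg). The exact permutation test gave p = 0.0857 (n = 4 per group).

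Krt17, the stress-associated type I keratin, had the fewest counts of the 4 keratins. Its levels were 22.45, 11.7, 10.3 and 3.125 CPM in control 1, 3, 65 and 69 and 9.84, 4.28, 7.89 and 7.07 CPM in etanercept 17, 19, 50 and 52. Controls 1, 3 and 65 were above every etanercept mouse and control 69 was below every one of them, as for Krt14. The means were 11.9 ± 7.98 and 7.27 ± 2.31 CPM (SD, n = 4 each). The log2 fold change was -0.71 ± 0.53 (SE; 95% interval -1.90 to 0.47), with an adjusted p of 0.859 with edgeR's quasi-likelihood model after Benjamini-Hochberg correction, and the exact permutation test gave p = 0.429 (n = 4 per group).

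**Figure D1:**
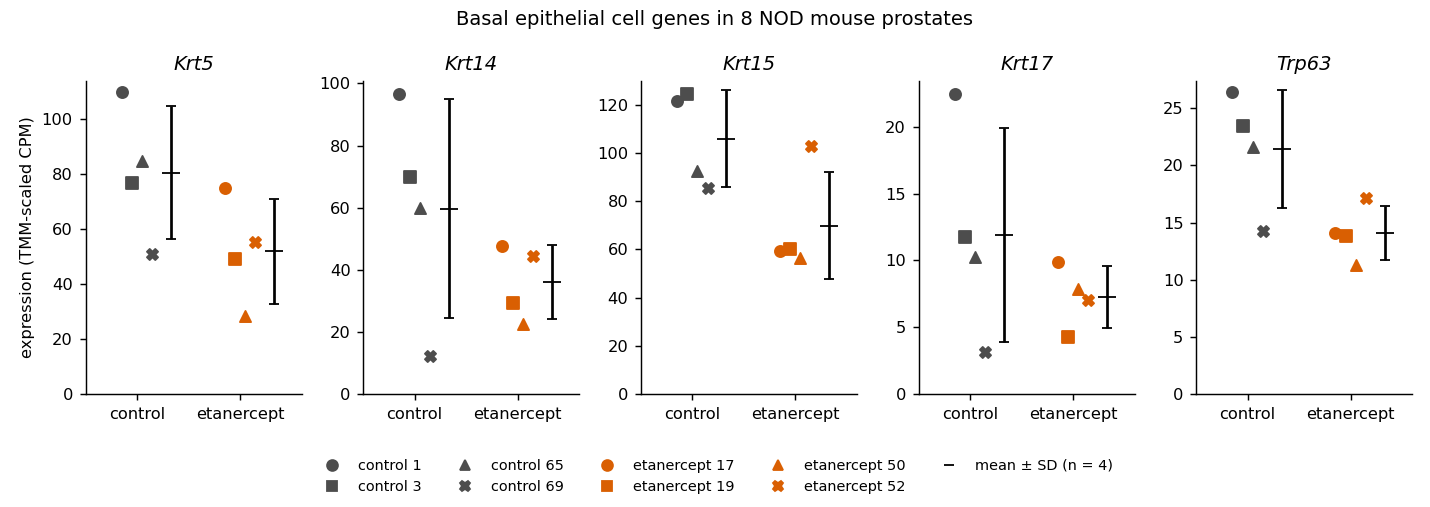
TMM-scaled CPM (vertical axes, from 0) of the 5 genes in each control and etanercept mouse, with the mean ± SD of 4 mice beside the points and 1 symbol per mouse. Control 69 is the lowest control for each gene, and for Krt14 and Krt17 it lies below all 4 etanercept mice.

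Across all 15472 genes tested, edgeR called 0 genes (0%), 0 of the 5 basal genes among them, where a call needs an adjusted p up to 0.05 and the smallest was 0.739. Before adjustment, 561 genes (3.63%) were lower and 463 (2.99%) higher with etanercept at p up to 0.05, a limit called nominal here, and of the 5 basal genes Krt15 and Trp63 were lower and 0 were higher. DESeq2 called 21 of 18664 genes (0.113%) and 0 of the 5. Every etanercept mouse lay below every control for 392 genes (2.53%) and for 0 of the 5. All 5 log2 fold changes were negative, with a median of -0.63, against a median of -0.01 over all tested genes, of which 51.0% were negative. The 5 genes were measured in the same mice and several pairs were correlated, so their shared sign does not count as 5 separate observations.

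One mouse had a large part in these tests. Without control 69, all 5 genes were lower at the nominal limit, with log2 fold changes of -0.80 for Krt5, -1.07 for Krt14, -0.69 for Krt15, -1.03 for Krt17 and -0.76 for Trp63. In that fit 5.98% of all genes were lower at that limit, and the smallest adjusted p of the 5 was 0.292, for Krt14 (edgeR's quasi-likelihood model, Benjamini-Hochberg correction). Without control 1, which had the highest Krt5, Krt14, Krt17 and Trp63, the log2 fold change was -0.41 for Krt14 and -0.22 for Krt17, and 0 of the 5 passed the nominal limit, against 2.82% of all genes lower in that fit. Leaving out control 3, etanercept 19 or etanercept 50 also left 0 of the 5 past it, where 3.03%, 2.66% and 2.62% of all genes were lower. Leaving out control 65 left Krt15 (2.49% of all genes), leaving out etanercept 17 left Krt5 (3.95%), and leaving out etanercept 52 left Krt15 and Trp63 (2.69%).

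To compare levels between genes, CPM were divided by exon length in kilobases, and the result is called FPKM. The mean over the 8 mice was 49.7 FPKM for Krt15, 30.1 for Krt5, 27.2 for Krt14, 6.18 for Krt17 and 2.12 for Trp63. The control and etanercept means were 59.98 ± 11.3 and 39.5 ± 12.6 FPKM for Krt15 and 36.6 ± 11.04 and 23.6 ± 8.69 FPKM for Krt5 (SD, n = 4 each). They were 34.0 ± 20.01 and 20.5 ± 6.82 FPKM for Krt14, 7.67 ± 5.14 and 4.69 ± 1.49 FPKM for Krt17, and 2.56 ± 0.616 and 1.68 ± 0.284 FPKM for Trp63 (SD, n = 4 each). Krt15 was above Krt5 in 7 of 8 mice, all except etanercept 17, with a geometric mean ratio of 1.69. Krt5 was above Krt14 in only 5 of 8 mice, so these neighbours in the order did not differ beyond their spread. Krt14 was above Krt17 and Krt17 above Trp63 in 8 of 8 mice, with geometric mean ratios of 4.36 and 2.59. The order depends in part on the length used: with a single transcript per gene (5366 bases for Trp63 in place of 8391 bases of all its exons), Krt17 was above Trp63 in 7 of 8 mice, all except control 69, with a ratio of 1.66, and Krt15 was above Krt5 in 8 of 8.

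Keratin genes numbered 54 in the table, of which 17 were tested and 27 had 0 counts in every mouse. The luminal and simple-epithelial keratins led on the FPKM scale, with means of 515 for Krt18, 252 for Krt19 and 191 for Krt8. Krt15, Krt5 and Krt14 came next, ahead of Krt23 (16.2 FPKM), Krt4 (9.73 FPKM) and Krt17, which ranked the ninth. Krt7 (2.49 FPKM) and Krt10 (1.06 FPKM) followed, and Krt80, Krt222, Krt79, Krt87, Krt1 and Krt78 had means of 0.436 FPKM or less. Of the other keratins tested, Krt4, a keratin of the proximal luminal and other non-keratinising epithelia, had the largest negative fold change. Its means were 32.0 ± 18.0 CPM in controls and 9.54 ± 3.42 CPM with etanercept (SD, n = 4 each), every etanercept mouse lay below every control, and its log2 fold change was -1.74 ± 0.42 (SE). Krt4 had an adjusted p of 0.739 by edgeR (quasi-likelihood, Benjamini-Hochberg) and of 0.0499 in DESeq2.

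**Figure D2:**
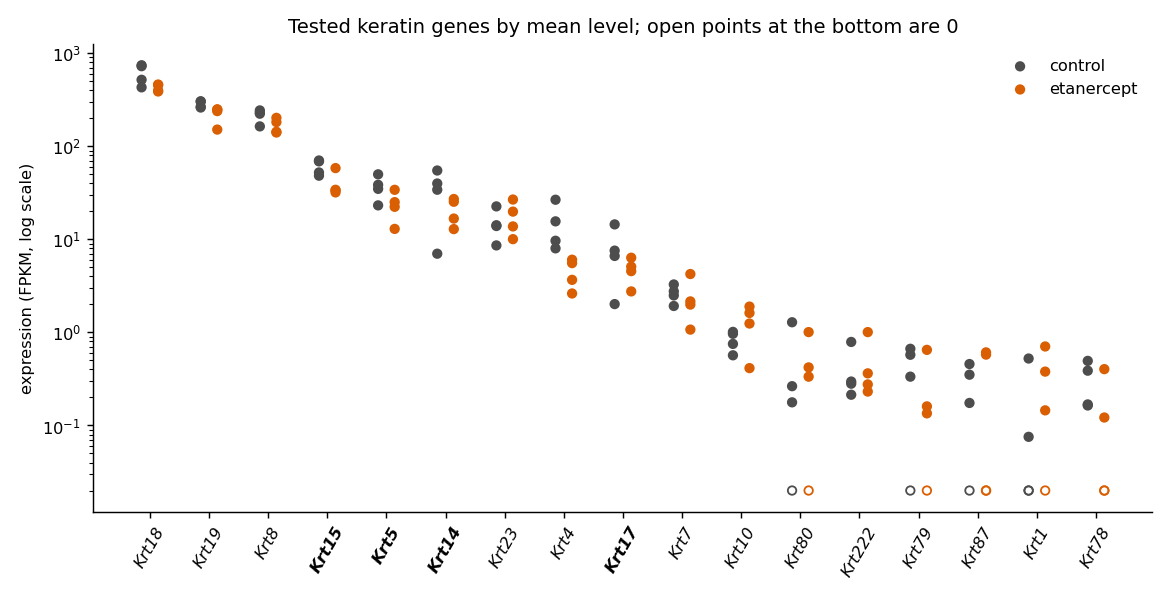
FPKM per mouse (log scale) of the 17 keratin genes tested, ordered by mean level, with control and etanercept mice in 2 colours, open points at the lower edge for values of 0, and the 4 basal keratins in bold. The 4 basal keratins ranked the fourth, the fifth, the sixth and the ninth.

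Ratios of 2 genes within a mouse do not depend on how libraries are scaled, and they show whether the basal genes differed from each other or from luminal genes. Krt5 to Krt14, the ratio of the partner keratins on the FPKM scale, was 0.910, 0.876, 1.13 and 3.31 in control 1, 3, 65 and 69 and 1.25, 1.34, 1.005 and 0.991 in etanercept 17, 19, 50 and 52. It lay between 0.876 and 1.34 in 7 mice and was highest in control 69, where Krt14 was low relative to Krt5. Among the 4 controls that gap was 0.896 of their range, past Dixon's 95% critical value, but on the log2 scale it was 0.809 and did not pass. Trp63 to Krt5 was between 0.0493 and 0.104 in all 8 mice, and its log2 ratio had means of -3.82 ± 0.15 in controls and -3.75 ± 0.45 with etanercept (SD, n = 4 each).

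The ratio of Krt5 to the luminal keratin Krt8 was 0.206, 0.213, 0.167 and 0.103 in control 1, 3, 65 and 69 and 0.238, 0.111, 0.0711 and 0.179 in etanercept 17, 19, 50 and 52. The lowest values were in control 69 and in etanercept 19 and 50, and the groups overlapped. The difference of the mean log2 ratios was -0.29 ± 0.45 (SE), with p = 0.571 in an exact permutation test (n = 4 per group). For Krt14 to Krt18 it was 0.02 ± 0.67, for Krt5 to the epithelial adhesion gene Epcam -0.42 ± 0.59 and for Trp63 to Epcam -0.35 ± 0.43. Within the basal genes it was -0.21 ± 0.46 for Krt5 to Krt14, 0.03 ± 0.35 for Krt15 to Krt5, 0.20 ± 0.51 for Krt17 to Krt5 and 0.08 ± 0.24 for Trp63 to Krt5. The exact permutation p of the 8 ratios was between 0.4 and 1 (n = 4 per group), and 1 for each after Benjamini-Hochberg adjustment over them. No difference in these ratios was detected with 4 mice per group, which does not show that they were equal.

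**Figure D3:**
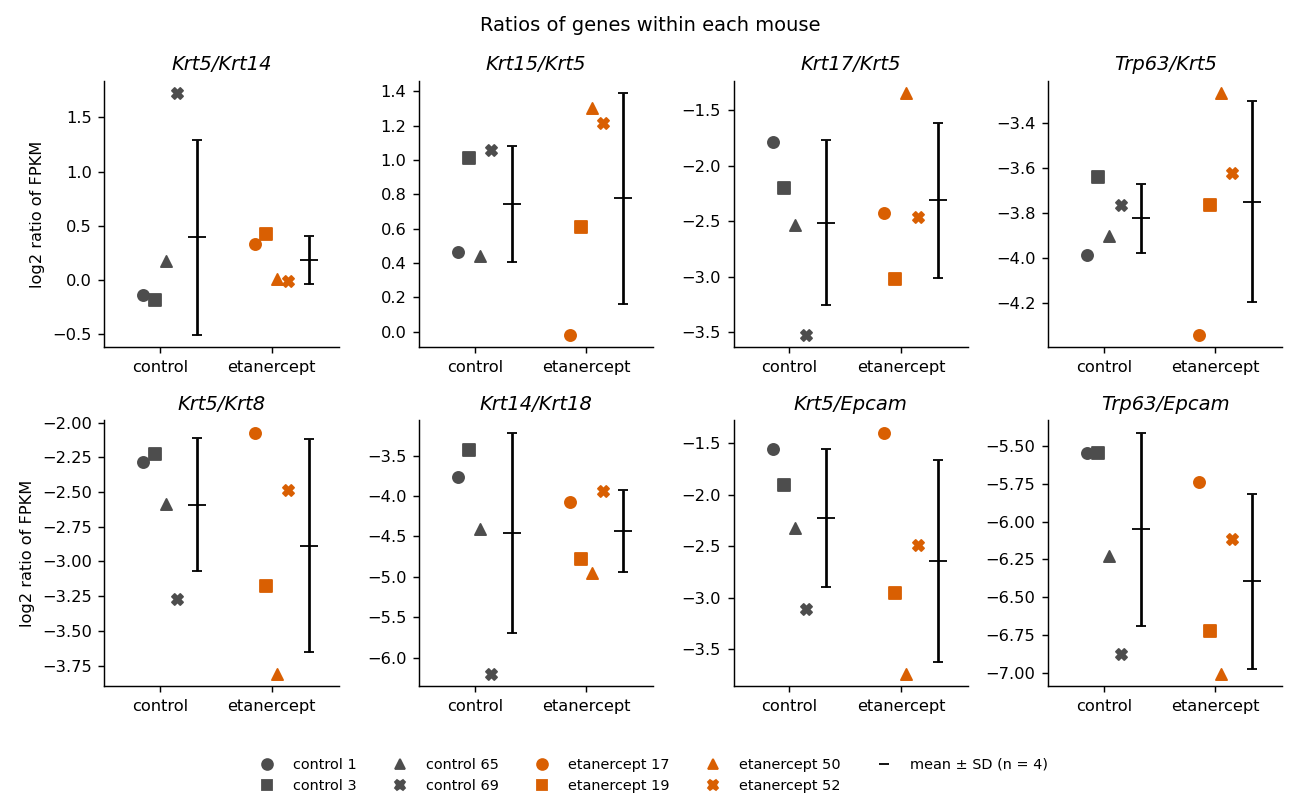
The log2 ratio of FPKM (vertical axes) of 8 gene pairs in each mouse, by group, with the mean ± SD of 4 mice and 1 symbol per mouse. Controls and etanercept mice overlap in each panel, and the highest Krt5/Krt14 value, a log2 ratio of 1.73, is that of control 69.

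Of the 10 pairs of these genes, 5 passed on both Pearson's r and Spearman's rho over the 8 mice after adjustment, 1 on rho alone and 4 on neither. On log2(CPM + 1), Krt14 and Krt17 had a Pearson r of 0.896 (exact permutation p = 0.00313, adjusted p = 0.0206 over 10 pairs, n = 8) and a Spearman rho of 0.929 (exact permutation p = 0.00223, adjusted p = 0.0112). Krt15 and Trp63 had an r of 0.895 (exact permutation p = 0.00657, adjusted p = 0.0219) and a rho of 0.929 (exact permutation p = 0.00223, adjusted p = 0.0112). Krt5 and Trp63 had an r of 0.866 (exact permutation p = 0.00412, adjusted p = 0.0206) and a rho of 0.905 (exact permutation p = 0.00456, adjusted p = 0.0114). Mice with more Trp63 thus had more Krt5 and Krt15, and Krt14 and Krt17 also moved together. The part of the sequence that Krt14 and Krt17 share in their relation was not tested.

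Krt14 and Trp63 had an r of 0.816 (exact permutation p = 0.0133, adjusted p = 0.0332) and a rho of 0.810 (exact permutation p = 0.0218, adjusted p = 0.0363). The partner keratins Krt5 and Krt14 had an r of 0.786 (exact permutation p = 0.0196, adjusted p = 0.0391) and a rho of 0.905 (exact permutation p = 0.00456, adjusted p = 0.0114). Krt5 and Krt17 had an r of 0.658 (exact permutation p = 0.0743, adjusted p = 0.0929), which did not pass, and a rho of 0.810 (exact permutation p = 0.0218, adjusted p = 0.0363). The remaining 4 pairs passed on neither measure after adjustment. They were Krt17 and Trp63 with an r of 0.714 (exact permutation p = 0.0451, adjusted p = 0.0752), Krt5 and Krt15 with 0.657 (exact permutation p = 0.0699, adjusted p = 0.0929), Krt14 and Krt15 with 0.575 (exact permutation p = 0.136, adjusted p = 0.151) and Krt15 and Krt17 with 0.491 (exact permutation p = 0.221, adjusted p = 0.221). Their rho was 0.690 (exact permutation p = 0.0694), 0.714 (p = 0.0576), 0.690 (p = 0.0694) and 0.524 (p = 0.197) in that order, with adjusted p of 0.0771 for the first 3 and 0.197 for the last.

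Taking the group means away left an r of 0.888 for Krt14 and Krt17, 0.779 for Krt15 and Trp63, 0.789 for Krt5 and Trp63, 0.942 for Krt14 and Trp63 and 0.810 for Krt5 and Krt14, so these relations were also seen among mice of the same group. Without the 2 mice farthest from the median of the first gene, r was 0.698, 0.836, 0.691, 0.922 and 0.775 in that order. For Krt5 and Krt15 it was 0.279 without control 1 and etanercept 50, so that relation rests on those mice. Krt14 and Krt17 had an r of 0.97 among the 4 controls and of 0.384 among the 4 etanercept mice, given as values with no test.

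**Figure D4:**
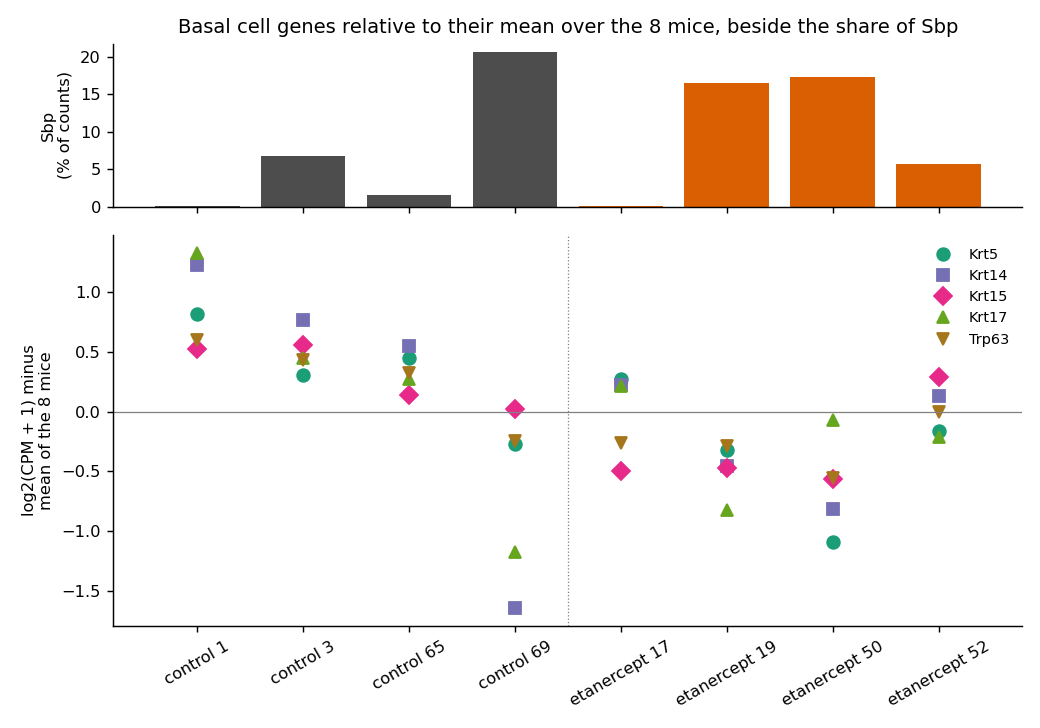
Upper panel, share of all counts that fell on Sbp in each mouse (percent, bars from 0). Lower panel, log2(CPM + 1) of each of the 5 genes minus that gene's mean over the 8 mice, where controls 1, 3 and 65 lie above 0 for all 5 genes and etanercept 19 and 50 below 0 for all 5.

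Sbp, a secretory protein gene of the prostate, took over 16% of counts in control 69, etanercept 19 and etanercept 50, with 20.7%, 16.5% and 17.3%. These mice also had the 3 lowest levels of Krt5, of 50.9, 49.15 and 28.5 CPM, the 3 lowest levels of Krt14 and the 3 lowest ratios of Krt5 to Krt8. The same did not hold for Krt15 and Krt17. Control 69 was above etanercept 17 for Krt15 (85.4 and 59.4 CPM), and etanercept 50 was above etanercept 52 for Krt17 (7.89 and 7.07 CPM). For Trp63, control 69 and etanercept 17 were nearly level (14.3 and 14.1 CPM, from 247 and 242 counts). The ratio of Trp63 to Epcam was 0.00850, 0.00947 and 0.00777 in control 69, etanercept 19 and etanercept 50, against 0.0134 to 0.0214 in the other mice. Krt5 to Epcam and Krt14 to Krt18 were also lowest in control 69, etanercept 19 and etanercept 50. In the other 5 mice Sbp took 0.157% to 6.8%, and its part in the levels of the basal genes was not tested.

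Genes whose level over the 8 mice was most like that of each basal gene were sought among 14539 genes with a mean of at least 1 CPM. Krt5 was followed most closely by Tcof1 (r = 0.969), Upk2 (0.960) and Yeats4 (0.939), Krt14 by Slc12a7 (0.984), Nrap (0.984) and Cbfb (0.977), and Krt15 by Dhx38 (0.963), Bbip1 (0.956) and Slbp (0.955). Krt17 was followed by Atox1 (0.984), Ccl17 (0.983) and Gm12216 (0.983), and Trp63 by Ptma (0.968), Dnph1 (0.957) and Supt3 (0.955). All points share the same 8 libraries, and with so many genes values of this size carry no test. The basal genes were not each other's closest genes. In likeness to Krt5, Trp63 ranked 101, Krt14 446, Krt17 1275 and Krt15 1278. In likeness to Krt15, Trp63 ranked 17 and Krt17 1907, and in likeness to Krt17, Krt14 ranked 152 and Krt15 3577.

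Other genes of the basal layer were taken from a list of 30, which holds the integrins, laminins and collagen that anchor basal cells to the basement membrane, desmosome genes, and receptors and factors of basal cells. Of these, 26 were tested and 0 were called in edgeR. At the nominal limit, 5 were lower (against 3.63% of all tested genes) and 0 higher (against 2.99%). A negative fold change was seen in 19 of the 26 (against 51.0% of all tested genes), with a median log2 of -0.33. Without control 69 the lower genes numbered 8 (against 5.98% of all genes in that fit), and without etanercept 17 they numbered 4 (against 3.95%).

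The adhesion gene Nectin1 separated the groups, with 28.3 ± 1.74 CPM in controls and 18.0 ± 2.90 CPM with etanercept (SD, n = 4 each) and a log2 fold change of -0.65 ± 0.18 (SE). Lgals7, a galectin of stratified epithelia, had 21.7 ± 9.64 and 8.24 ± 1.84 CPM and a log2 fold change of -1.40 ± 0.40. Bcam, a laminin receptor, had 91.2 ± 32.4 and 57.2 ± 7.60 CPM and a log2 fold change of -0.67 ± 0.26. These 3 genes had unadjusted p of 0.00551, 0.00640 and 0.0290 in edgeR's quasi-likelihood test, and an adjusted p above 0.05. Col17a1, the hemidesmosomal collagen, had 14.9 ± 8.18 and 5.01 ± 3.65 CPM and a log2 fold change of -1.57 ± 0.68, and the surface gene Ly6d had 29.5 ± 17.1 and 13.3 ± 4.44 CPM and a log2 fold change of -1.15 ± 0.50. Their unadjusted p in the same test was 0.0453 and 0.0464.

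Other anchoring genes did not pass the nominal limit. Itgb4 and Itga6, the integrin pair of the hemidesmosome, had log2 fold changes of -0.38 ± 0.26 and 0.14 ± 0.33, and the laminin chains Lama3 and Lamb3 had -0.12 ± 0.69 and 0.11 ± 0.37. Dst and Plec, which link keratin filaments to the hemidesmosome, had -0.07 ± 0.23 and -0.33 ± 0.23 (all SE). Wnt10a, a WNT ligand, had a log2 fold change of 0.73 ± 1.04 (SE). Dsg3, Dsc3, Aqp3 and Krt6a had too few counts to be tested, with at most 6, 26, 21 and 0 counts in a mouse.

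**Figure D5:**
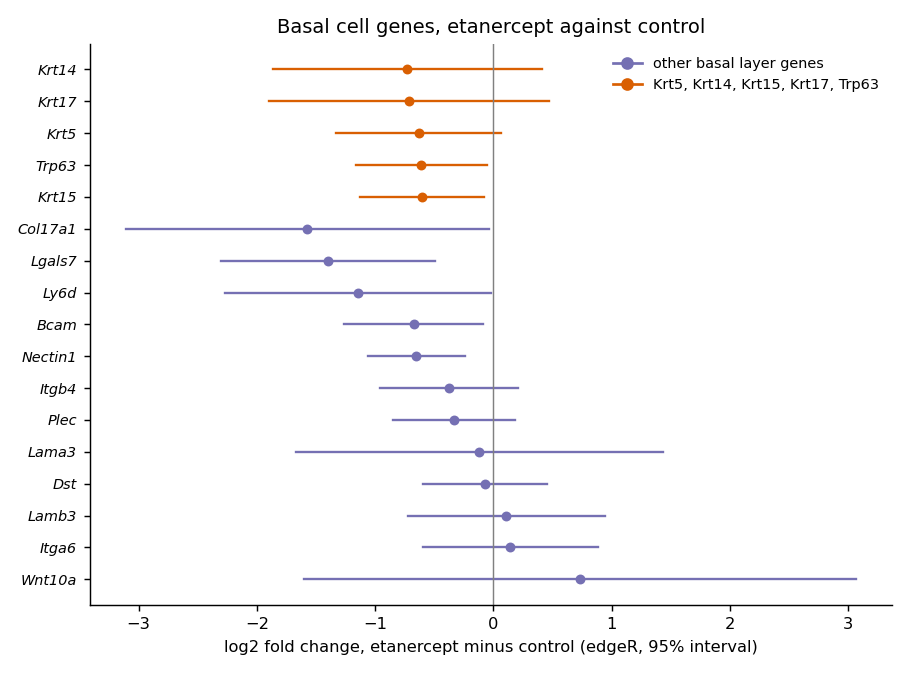
Log2 fold change of etanercept against control (horizontal axis, edgeR, with 95% intervals) for the 5 basal genes and for the other basal layer genes whose fold changes are given in the text. All 5 basal genes lie left of 0, and the intervals of Krt15 and Trp63 among the 5 exclude 0, before any adjustment.

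Luminal and pan-epithelial genes were examined beside them. All 20 were tested, 15 had a negative fold change (against 51.0% of all tested genes), and the median log2 fold change was -0.15. Krt8, Krt18, Krt19 and Epcam had log2 fold changes of -0.37 ± 0.20, -0.51 ± 0.23, -0.35 ± 0.20 and -0.22 ± 0.25 (SE). For Krt19 every etanercept mouse lay below every control (exact permutation p = 0.0286), as for 2.53% of all tested genes. Krt18 had an unadjusted p of 0.05002 in edgeR. Krt4 was lower and Cd24a, at 0.72 ± 0.28 (SE), was higher at the nominal limit in edgeR. Over all tested genes 3.63% were lower and 2.99% higher at that limit.

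Markers of other cell types also differed between the mice. Of 12 smooth muscle and fibroblast markers 9 had a positive fold change, with a median log2 of 0.61. Over all tested genes 51.0% had a negative one. Actg2 (1.35 ± 0.44), Cnn1 (1.35 ± 0.45), Tagln (0.75 ± 0.25) and Acta2 (0.77 ± 0.32) were higher at the nominal limit, against 2.99% of all tested genes. The summed level of the 12 markers was 3748 to 8026 CPM in controls and 7000 to 14790 CPM with etanercept. Of 10 leukocyte markers 10 had a negative fold change (against 51.0% of all tested genes), with a median log2 of -0.79. Their summed levels were 380.7 to 1306 CPM in controls and 398.5 to 494 CPM with etanercept. C1qa (-1.18 ± 0.37), Cd3e (-1.05 ± 0.35) and Cd68 (-0.79 ± 0.35) were lower at the nominal limit, against 3.63% of all tested genes. The 1306 CPM were those of control 3 alone, the other controls had 380.7, 623.5 and 416 CPM, and only control 3 and control 65 lay above the etanercept mice. The part of these cell types in the lower basal gene levels was not tested.

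Several of the basal keratins are also made by urothelium and by cornified squamous epithelium. Of 8 urothelium markers 4 were tested and 0 passed the nominal limit, and their sum was 177 to 645 CPM in controls and 151 to 486 CPM with etanercept, most of it Upk1a. Upk1b had 58.3 ± 32.9 CPM in controls and 61.6 ± 40.4 CPM with etanercept, and Upk2 had 6.64 ± 4.49 and 3.33 ± 2.41 CPM (SD, n = 4 each). Upk2 is also the gene second in likeness to Krt5 above (r = 0.960). The sum of the list was 177, 262, 350 and 645 CPM in control 1, 3, 65 and 69. It was 151, 458, 486 and 229 CPM in etanercept 17, 19, 50 and 52. The highest sums were those of control 69, etanercept 19 and etanercept 50, where Krt5 was lowest. The lowest sum was that of etanercept 17. Upk3b had 4.13 ± 6.83 CPM in controls and 0.214 ± 0.428 CPM with etanercept (SD, n = 4 each), with a log2 fold change of -4.18 ± 1.97 (SE) and an unadjusted p of 0.0601 in edgeR. Krt20 had at most 6 counts in a mouse, and the part of urothelium in the basal gene levels was not tested. Of 14 cornified squamous markers 6 were tested and 0 passed the nominal limit, with sums of 13.7 to 19.9 CPM in controls and 8.50 to 22.3 CPM with etanercept. Flg, Sprr1b, Cnfn and Krt6b had 0 counts in every mouse, and Ivl at most 5. Of 7 seminal vesicle markers 4 were tested, and 4 of these had a positive fold change, with a median log2 of 4.18, where etanercept 17 alone held the 97200 CPM given above. Of 9 adipocyte and skeletal muscle markers 8 were tested and 7 had a negative fold change (against 51.0% of all tested genes), with a median log2 of -3.39. Their sums were 111 to 1817 CPM in controls and 689.5 to 1321 CPM with etanercept. Retn, Plin1, Adipoq and Tnnt3 were lower at the nominal limit, against 3.63% of all tested genes. The 1817 CPM were those of control 3, and Tnnt3, a skeletal muscle gene, had 38.9 ± 77.1 CPM in controls (SD, n = 4), an SD above its mean. Retn, an adipocyte hormone gene, was also called by DESeq2 (adjusted p = 3.31e-05), with every etanercept mouse below every control. Acta1, with the highest mean CPM of these markers, had 427 ± 393 CPM in controls and 916 ± 291 CPM with etanercept (SD, n = 4 each) and a positive log2 fold change of 1.10 ± 0.66 (SE).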

How the data were processed

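Poly(A)-selected RNA of 8 frozen prostates was sequenced from both ends (150 nt). The authors mapped reads with STAR 2.6.1d, and the submitters' processing notes also name fastp, featureCounts 1.5.0-p3, DESeq2 1.26.0 and mm10. The authors deposited whole-number counts per gene and mouse without normalization. The strand setting and annotation release are not given in the sources used here.

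Of 54532 identifiers, 37 (0.00429% of counts) were not in GENCODE M21. Genes were tested with edgeR 4.0.16 (R 4.3.3): TMM factors, filterByExpr (minimum count 10), quasi-likelihood test of etanercept against control, and Benjamini-Hochberg adjustment over 15472 genes, called at 0.05. Single genes and ratios were compared by exact two-sided permutation over 70 assignments of mice. FPKM used union exon length, and the length of a single transcript was added after seeing the data. Promoters came from RefSeq. Scripts were tested on simulated data.

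Members and lists were chosen with earlier results of these data known. The genes named are the 5 basal genes, the keratins tested, the partners of the ratios, the 3 genes most like each basal gene, and in each list those with an unadjusted p of at most 0.05 or the smallest p in each direction. The desmosome, integrin, laminin and linker genes, and markers at or near 0 counts, were named after their values were seen. Single values of some listed genes are not reported here. Alternatives were DESeq2 1.42.0, other factors and filters, protein-coding genes only, a robust fit, a term for animals numbered below 20 against those above 49, other pseudocounts, and leaving out each mouse. Each mouse is a separate animal. Counts carry no molecular identifiers.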

Additional observations from a re-analysis of the deposited data

Results flagged for a closer look

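Among 26 groups of 4 mice looked at for a mouse that stands apart from its group, on CPM for the 5 genes and on the log2 scale for the 8 ratios, 1 was found by Dixon's test at its 95% critical value, and chance flags about 1 in 20. It was Krt15 in etanercept 52, at 103.0 CPM against 56.4 to 60.2 CPM in the other 3 etanercept mice. Without etanercept 52 the log2 fold change of Krt15 was -0.86 ± 0.19 (SE), with an unadjusted p of 0.00171 and an adjusted p of 0.999 by edgeR (quasi-likelihood, Benjamini-Hochberg). The other 4 basal genes had 55.2, 44.6, 7.07 and 17.1 CPM (Krt5, Krt14, Krt17 and Trp63) in that mouse. On the linear scale of the ratios, control 69 also stood apart among the controls for Krt5 to Krt14, with 3.31 against 0.876 to 1.13, a gap of 0.896 of the range against 0.809 on the log2 scale, where it did not pass.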

How the results depend on the processing

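The log2 fold changes of the 5 basal genes were negative and not called in each of 18 alternatives, and the number of genes called over the whole table was 0 in all of them except DESeq2, which called 21. Leaving out 1 mouse at a time gave log2 fold changes of -0.86 to -0.43 for Krt5, -1.07 to -0.41 for Krt14, -0.86 to -0.51 for Krt15, -1.03 to -0.22 for Krt17 and -0.76 to -0.51 for Trp63. Differences of mean log2(CPM + 1) were -0.85 to -0.40, -1.08 to -0.12, -0.82 to -0.54, -0.91 to -0.07 and -0.73 to -0.45 in that order. They reached the smallest exact permutation p of 0.0286 for Krt14 and Trp63 without control 69 and for Krt15 without etanercept 52. The number of other basal layer genes lower at an unadjusted p of at most 0.05 was 8 without control 69 and 4 without etanercept 17, alternatives chosen after seeing the data, where 5.98% and 3.95% of all genes were lower. The differences in log2 ratio changed sign when 1 mouse was left out, over ranges of -0.40 to 0.24 for Krt5/Krt14, -0.14 to 0.30 for Krt15/Krt5, -0.14 to 0.44 for Krt17/Krt5, -0.0858 to 0.27 for Trp63/Krt5, -0.57 to 0.0141 for Krt5/Krt8 and -0.57 to 0.36 for Krt14/Krt18, but not for Krt5/Epcam (-0.84 to -0.06) or Trp63/Epcam (-0.62 to -0.14). With library size alone, r was 0.732 for Krt5 and Krt15 (unadjusted exact permutation p = 0.0398, n = 8) and 0.727 for Krt5 and Krt17 (p = 0.0409). The cause of these changes was not tested. No paired analysis was possible because no animal number occurs in both groups. Depth limits Krt17 most, with 54 counts in its lowest mouse.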
